A study of Sus scrofa with 22 samples.

Results

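AP-1 and the immediate early transcription factors were followed in the endometrium of gilts on Day 12, when the pig conceptus elongates and signals to the uterus. The 9 genes of this group were fixed by name (FOS, FOSB, FOSL1, FOSL2, JUN, JUNB, JUND, ATF3 and EGR1), and those listed in at least 1 of the 3 count tables were taken, which gave 8 genes out of 12401 listed genes in all. FOSB was in none of the tables and was not analysed here. FOSL1 was listed for LE only, so that 8 members were measured in LE and 7 in both GE and S.

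Areas of stroma (S) and of the epithelium of the uterine lumen (LE) and of the glands (GE) were cut from frozen sections of the endometrium by laser capture microdissection (LCM) and sequenced as separate libraries. Pregnant gilts (n = 4, gilts 01, 03, 05 and 14) and nonpregnant cyclic gilts (control, n = 4, gilts 02, 04, 06 and 13) were prepuberal crossbreeds of German Landrace and Piétrain in which ovulation had been synchronized with PMSG and hCG. Pregnant gilts had been inseminated with semen, and control gilts with the supernatant of centrifuged semen, so that both groups shared the hormone treatment and an insemination. Each gilt contributed 1 library of LE and 1 of GE, whereas for S there were libraries of 3 pregnant gilts (01, 05 and 14) and 3 control gilts (02, 04 and 13).

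FOS and JUN proteins are leucine zipper (bZIP) factors that bind DNA as pairs and together make up AP-1. FOS proteins pair with JUN proteins, whereas JUN proteins can also pair among themselves, and the composition of the pair sets which genes are reached and how strongly. FOS, JUNB, ATF3 and EGR1 are classical immediate early genes, transcribed within minutes of a growth factor, cytokine or stress signal through MAP kinases, without new protein synthesis. FOSL1 and FOSL2 follow later and last longer, and JUND is present in many resting cells. In epithelia AP-1 is known for the control of genes of migration, matrix turnover and cell adhesion.

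The libraries held 893912 to 4020796 counts on the listed genes, with the lowest total in pregnant LE of gilt 01. A count of 3, taken as the floor, amounted to 0.690 to 3.50 CPM (counts relative to the scaled size of the library). Markers of the labelled cell types were checked on a scale common to all libraries, and they went against the label of S. In control S the sum of 8 epithelial markers was 2782 to 3402 CPM, which lay within or just under the 3002 to 3703 CPM of control LE, while the sum of 7 fibroblast markers was 4650 to 8605 CPM in control S and 11509 to 17169 CPM in control LE. These libraries are therefore called the libraries labelled S. In pregnant gilts the libraries labelled S held 1189 to 4278 CPM of the epithelial markers and 8191 to 59336 CPM of the fibroblast markers. Pregnant LE held 3067 to 4437 and 7610 to 20286 CPM of these markers. LE of both groups thus also held fibroblast markers, and LE is likewise the name given by the label. Between control and pregnant LE, 2 of the 8 epithelial markers rose and 3 fell at an FDR of 0.01 (edgeR, 10.0% of all genes). Control GE held 798 to 2408 CPM of the epithelial markers, under all libraries of control LE and control S, and 4336 to 46019 CPM of the fibroblast markers. In pregnant GE these sums were 2371 to 3385 and 10250 to 29494 CPM. In control gilts the markers thus did not set GE apart as more epithelial than S. The highest fibroblast sums were those of gilt 01 in S and of gilt 02 in GE (46019 CPM), and the highest smooth muscle sums those of gilt 02 in GE (7640 CPM) and gilt 01 in LE (5126 CPM). FOXA2, a factor of uterine glands, was listed for GE and for the libraries labelled S and was not listed for LE. In such captured areas a lower level can come from fewer cells of a type or from less RNA per cell, which cannot be told apart.

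In the NCBI annotation of Sscrofa11.1 the 8 members have models of 1 to 4 exons, and 4 of the 8 lie on chromosome 2. FOS is on the plus strand at chr7:98449508-98451971 with 4 exons, and its model covers coding sequence only. FOSL1 (chr2:6430158-6436173), JUND (chr2:59530991-59532846) and EGR1 (chr2:140440829-140445302) are also on the plus strand, as is JUN (chr6:153686425-153687635), which has a single exon. JUNB (chr2:66214086-66219435), FOSL2 (chr3:110820403-110842903) and ATF3 (chr9:130772259-130829678) are on the minus strand. No member overlapped another annotated gene, and at most 1.38% of the exon bases of a member matched sequence elsewhere in the genome over at least 50 bases at 95% identity or more, so that few reads could be shared.

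Because several members varied together between animals, as described further on, the 1000 bases before each annotated start were searched on both strands for the sites through which these genes are known to be controlled. The motifs were the CArG box bound by serum response factor, the AP-1 site TGACTCA, the cyclic AMP response element (CRE) TGACGTCA, the EGR site GCGNGGGCG and TATAAA, and the stretches around the CArG, AP-1 and CRE matches and the match next to the start of EGR1 are shown 5′ to 3′ on the strand of the gene with the matches in capitals.
FOS (456 to 157 bases before the start, chr7:98449052-98449351, CArG box and TATAAA): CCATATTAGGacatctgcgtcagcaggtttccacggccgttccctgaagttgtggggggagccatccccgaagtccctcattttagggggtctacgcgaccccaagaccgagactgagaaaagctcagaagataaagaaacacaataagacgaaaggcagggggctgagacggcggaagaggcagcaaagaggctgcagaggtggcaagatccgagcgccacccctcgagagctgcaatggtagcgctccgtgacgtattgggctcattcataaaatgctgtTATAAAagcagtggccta
FOSL1 (680 to 621 bases before the start, chr2:6429478-6429537, CArG box): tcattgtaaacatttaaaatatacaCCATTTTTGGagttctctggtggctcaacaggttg
FOSL2 (780 to 721 bases before the start, chr3:110843624-110843683, AP-1 site): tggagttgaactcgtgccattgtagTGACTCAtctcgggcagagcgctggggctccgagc
JUNB (910 to 871 bases before the start, chr2:66220306-66220345, AP-1 site read on the other strand): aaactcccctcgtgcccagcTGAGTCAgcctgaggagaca
JUNB (649 to 610 bases before the start, chr2:66220045-66220084, AP-1 site): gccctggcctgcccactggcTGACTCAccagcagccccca
JUND (208 to 149 bases before the start, chr2:59530783-59530842, CRE): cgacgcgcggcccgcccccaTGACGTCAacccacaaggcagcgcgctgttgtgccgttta
EGR1 (48 to 9 bases before the start, chr2:140440781-140440820, EGR site read on the other strand): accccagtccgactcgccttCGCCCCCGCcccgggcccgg
The CArG box of FOS lay 456 bases and its TATAAA 174 bases before the annotated start, which for this gene is the start of the coding sequence. A CArG box was found in 5.79% of 19542 such windows of the genome, the AP-1 site in 12.6%, the CRE in 2.40%, the EGR site in 13.5% and TATAAA in 40.2%. Not shown are the matches of an EGR site 522 bases before the start of JUN, of TATAAA 525 bases before that of JUNB, and of TATAAA 1000 and 446 bases before that of ATF3. No motif was found before all of FOS, JUNB and EGR1, the genes that varied together most, and only TATAAA before both FOS and JUNB. None of the matches overlapped another one in these 8 genes, and a match describes the letters of the window, not the binding of a factor.

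The first comparison asked which of these factors changed in each cell type in response to the presence of conceptuses. In LE of pregnant gilts FOSL2 rose, and apart from FOSL1 it was the only member called at the FDR of 0.01 used for LE (edgeR quasi-likelihood F test, Benjamini-Hochberg over 11415 genes). FOSL1 was near 0 in control LE and may have passed the CPM filter of the LE table through the pregnant libraries alone, in which case it had to differ. Its call is therefore not read as a test of a rise. FOSL1 is left out of the counts over members, except where a count is said to include it. Of the other 7 members 1 was called, against a background of 10.0% of all genes tested in LE (6.33% higher and 3.71% lower in pregnant gilts). JUNB, JUND, ATF3 and FOS lay between an FDR of 0.01 and 0.05, the first 3 with higher and FOS with lower levels in pregnant gilts. At an FDR of 0.05, 5 of these 7 members would pass, against a background of 22.4%. JUN and EGR1 were far from either threshold. At the edgeR p of 0.0021 used for GE and S, a wider cut, 5 members with FOSL1 would pass in LE (12.7% of all genes).

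FOSL2 encodes FRA2, a FOS family protein without the strong activation domain of FOS. In LE it was at 310.0, 196, 283 and 269 CPM in control gilts 02, 04, 06 and 13, and at 1283, 1366, 921 and 757 CPM in pregnant gilts 01, 03, 05 and 14. The lowest pregnant library was thus well above the highest control library. The log2 fold change (log2 FC) was 2.03 ± 0.24 (SE, n = 4 per group, edgeR FDR 0.000394). FOSL2 was the member with the most reads in every cell type.

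FOSL1, which encodes FRA1, the other late member of the FOS family, was close to absent from control LE. Its read counts were 1, 1, 0 and 3 in control gilts 02, 04, 06 and 13, and 9, 19, 27 and 21 in pregnant gilts 01, 03, 05 and 14. Every control library was at or under the floor of 3 counts and every pregnant library above it. Pooled over libraries, 76 counts in pregnant and 5 in control LE gave a ratio of 22.4 with an exact 95% interval of 9.18 to 70.9, which covers counting error only. The fitted log2 FC of 4.42 ± 0.55 (SE, n = 4 per group, edgeR FDR 0.000522) depends on the prior count at such low levels. The ratio and the fit are given as a description, since FOSL1 may have passed the CPM filter through the pregnant libraries alone. With a filter of at least 10 counts in every library the gene could not be tested.

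FOS, the founding member of the family, went the other way. Its levels in LE were 41.0, 23.5, 28.5 and 67.0 CPM in control gilts 02, 04, 06 and 13, and 22.2, 7.27, 13.6 and 10.9 CPM in pregnant gilts 01, 03, 05 and 14. All pregnant libraries lay under all control libraries, although gilts 01 and 04 differed by little. The log2 FC was −1.64 ± 0.40 (SE, n = 4 per group) with an edgeR FDR of 0.0166, which missed the threshold. Within each library, where scaling plays no part, there were 4.02 to 9.91 FOSL2 reads for each FOS read in control LE and 57.8 to 188 in pregnant LE. The lowest ratio of pregnant LE was thus far above the highest of control LE. In GE the same ratio was 7.0 to 22.2 in control and 10.4 to 52.8 in pregnant libraries, with overlap. In the libraries labelled S it was 4.19 to 15.6 and 22.2 to 105, without overlap. There were only 3 gilts per group there, and the highest ratio rests on 6 FOS reads in gilt 14. Neither FOSL2 nor FOS was called in S, where 17.6% of single genes did not overlap in CPM. The share of gene pairs without overlap was not computed, so that the ratios are given as a description.

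**Figure D1:**
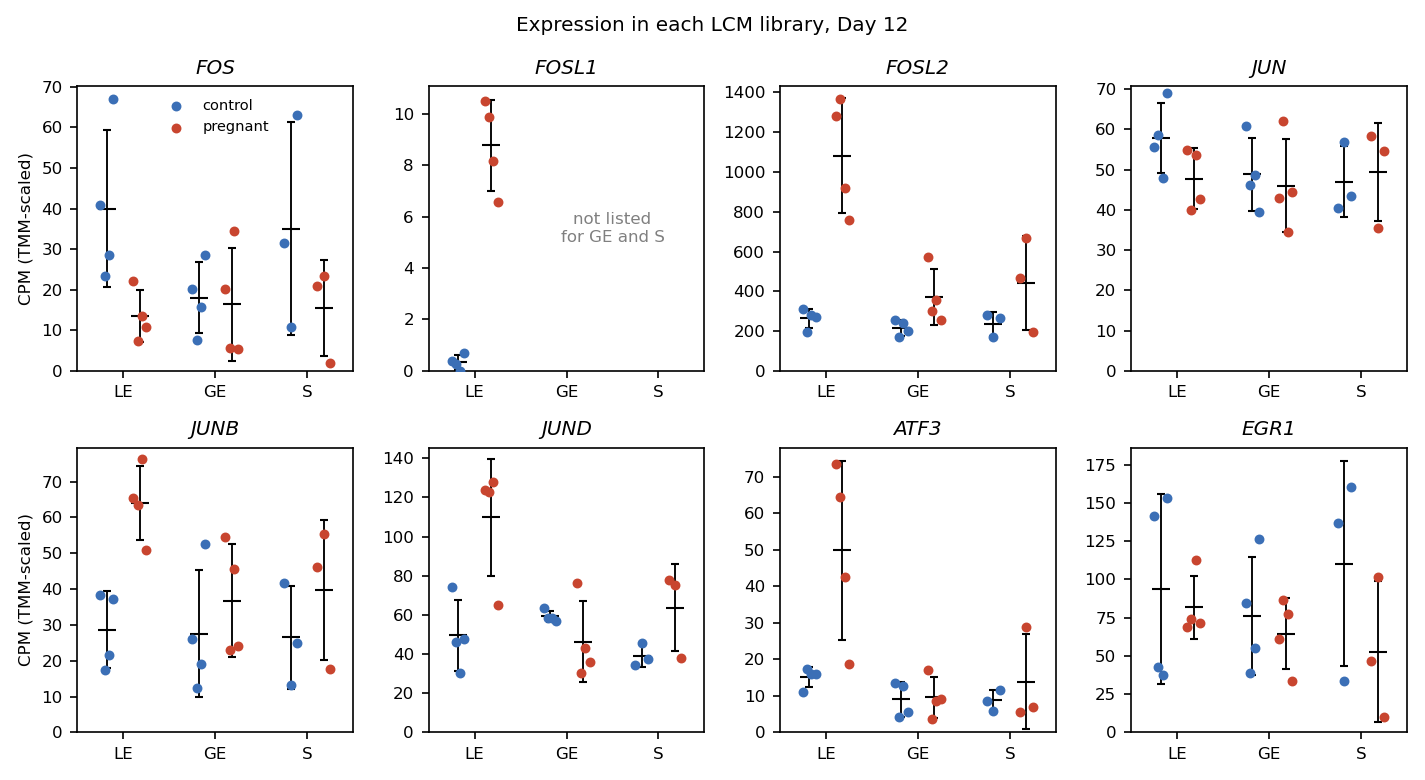
Level of each member (vertical axis, CPM after TMM scaling, linear and starting at 0) in every LCM library of LE, GE and S on Day 12, with control gilts in blue, pregnant gilts in red, and black bars for the mean ± SD. In LE the pregnant libraries of FOSL1, FOSL2, JUNB and ATF3 all lie above the control libraries and those of FOS below, whereas the groups overlap for every member in GE and S.

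The JUN family provides the partners. JUNB was at 38.4, 17.4, 21.6 and 37.3 CPM in control LE (gilts 02, 04, 06 and 13) and at 65.4, 63.4, 76.2 and 50.9 CPM in pregnant LE (gilts 01, 03, 05 and 14). The groups did not overlap, and the log2 FC was 1.16 ± 0.28 (SE, n = 4 per group, edgeR FDR 0.0144). JUND was at 74.2, 46.2, 30.3 and 47.6 CPM in control LE and at 124, 123, 128 and 65.0 CPM in pregnant LE, in the same order of gilts. Here pregnant gilt 14 lay under control gilt 02, so that the groups overlapped, with a log2 FC of 1.14 ± 0.30 (SE, n = 4 per group, edgeR FDR 0.0209).

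JUN itself was among the steadiest members. It was at 55.7, 58.5, 48.0 and 69.0 CPM in control LE and at 54.9, 39.99, 53.5 and 42.8 CPM in pregnant LE, with overlapping groups and a log2 FC of −0.28 ± 0.18 (SE, n = 4 per group, edgeR FDR 0.305). Relative to JUN, the other JUN genes had a larger part of the reads in pregnant LE. There were 0.297 to 0.689 JUNB reads for each JUN read in control LE and 1.19 to 1.58 in pregnant LE. For JUND these ratios were 0.630 to 1.33 and 1.52 to 3.06, without overlap either. The share of gene pairs without overlap was not computed for these ratios, which are a description as well.

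ATF3, a bZIP factor of the stress response that can pair with JUN proteins, was at 11.07, 17.4, 16.01 and 16.1 CPM in control LE (gilts 02, 04, 06 and 13) and at 73.5, 64.4, 42.6 and 18.7 CPM in pregnant LE (gilts 01, 03, 05 and 14). The groups were separate, but gilt 14 was only just above the control libraries, and the log2 FC was 1.68 ± 0.38 (SE, n = 4 per group, edgeR FDR 0.0113). Without gilt 14, ATF3, JUNB and JUND were called as well and the count of called members was 5 with FOSL1 (background 14.4%), while it was 2 without any other gilt. EGR1, a zinc finger factor that is induced together with FOS in many cells, was at 142, 43.0, 37.6 and 153 CPM in control LE and at 68.9, 74.3, 112 and 71.8 CPM in pregnant LE. Control gilts 02 and 13 were high and control gilts 04 and 06 low, with all pregnant gilts between them (log2 FC −0.19 ± 0.44, SE, n = 4 per group, edgeR FDR 0.794).

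Counted over the 7 members other than FOSL1, 4 had pregnant and control libraries of LE that did not overlap, against 26.7% of all genes tested. In GE and S this was so for 0 of 7 members, against 4.92% and 17.6% of the genes. The median log2 FC of these 7 members in LE was 1.14, beside 0.01 over all genes of LE. With the likelihood ratio test of edgeR and with DESeq2, 6 members with FOSL1 were called in LE at the same FDR, the additional ones being FOS, JUNB, JUND and ATF3. These tests also called more of all genes, with 18.2% for the likelihood ratio test and 19.2% for DESeq2. The direction of each of these 6 was the same without any 1 gilt and under every scaling. Without gilt 01, whose LE library had the highest smooth muscle sum, 2 members with FOSL1 were again called in LE, and the part of those markers in the single values was not tested.

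In GE none of the 7 members passed the p value of 0.0021 used for GE and S, where 0.694% of all genes were called. A single member was under an unadjusted p of 0.05 (edgeR, 8.09% of all genes), and DESeq2 called none. FOSL2 was at 256, 169, 241 and 200.4 CPM in control GE (gilts 02, 04, 06 and 13) and at 574, 303, 358 and 255 CPM in pregnant GE (gilts 01, 03, 05 and 14). Only pregnant gilt 14 lay among the control libraries, by a narrow margin to gilt 02, and the log2 FC was 0.78 ± 0.28 (SE, n = 4 per group, edgeR FDR 0.484).

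The other members of GE overlapped between the groups. JUND was even across control GE (57.0 to 63.4 CPM) and spread over 30.2 to 76.2 CPM in pregnant GE, with 3 of 4 pregnant gilts under all control gilts (log2 FC −0.36 ± 0.29, SE). ATF3 was at 9.08 ± 4.78 CPM (SD, n = 4) in control and 9.67 ± 5.59 CPM (SD, n = 4) in pregnant GE. FOS spread widely within both groups of GE, from 7.63 to 28.6 CPM in control and from 5.30 to 34.5 CPM in pregnant gilts.

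In the libraries labelled S none of the 7 members was called (background 1.47%), none was under an unadjusted p of 0.05 by edgeR (12.5% of all genes), and DESeq2 called none. FOSL2 was at 280.3, 169 and 264 CPM in control gilts 02, 04 and 13 and at 467, 666 and 194 CPM in pregnant gilts 01, 05 and 14, with gilt 14 again low (log2 FC 0.90 ± 0.46, SE, n = 3 per group, edgeR FDR 0.496). JUND was at 34.3, 45.6 and 37.7 CPM in control and 77.7, 75.0 and 38.0 CPM in pregnant gilts in the same order (log2 FC 0.69 ± 0.33, SE, edgeR FDR 0.459). FOS and EGR1 had the widest spread, with FOS at 31.5, 10.8 and 63.0 CPM in control and 21.0, 23.4 and 1.84 CPM in pregnant gilts. Pregnant gilt 14 held only 6 FOS reads in its library labelled S. Pregnant gilt 01, with the highest fibroblast sum, was high in FOSL2 and JUND and not in ATF3 (5.66 CPM), and the part of that sum in these values was not tested.

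**Figure D2:**
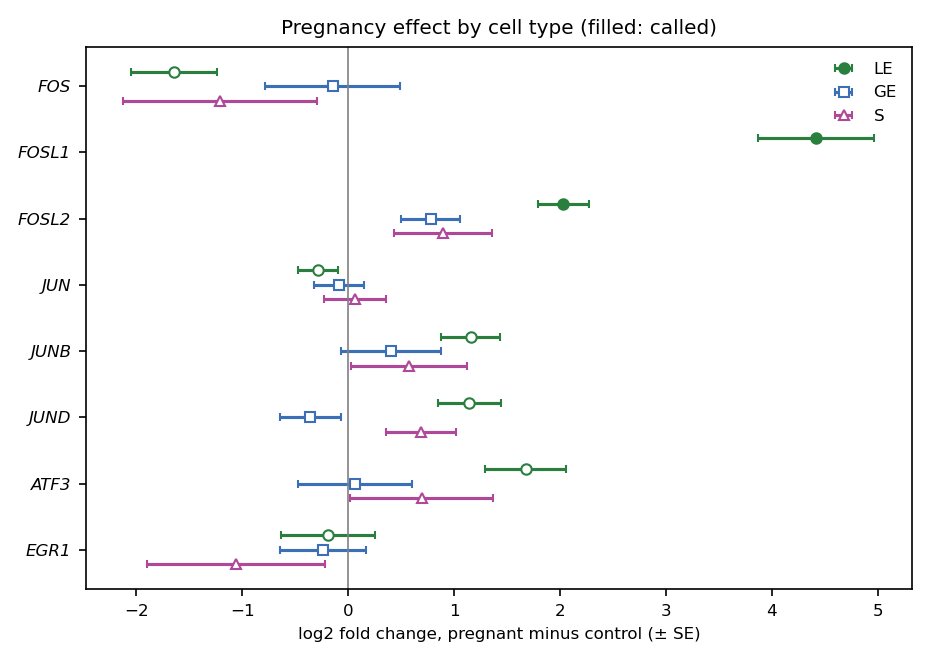
Log2 FC of pregnant minus control gilts (horizontal axis) for each member in LE (circles), GE (squares) and S (triangles), with bars for the SE and filled symbols for called members. FOSL1 and FOSL2 in LE are the filled symbols, at 4.42 and 2.03, and JUNB, JUND and ATF3 in LE lie between 1.14 and 1.68. FOSL1 may have passed the CPM filter through the pregnant libraries alone, so that its filled symbol is not read as a test of a rise.

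A further comparison asked whether the response differed between cell types. It used the interaction terms of a fit over all 22 libraries and 10643 common genes, which FOSL1 could not enter. Without a block no member passed an FDR of 0.01 in any of the 3 comparisons, and no gene of the 10643 did (edgeR, background 0%), nor did DESeq2 call a member. For LE against GE, 3 of 7 members were under an unadjusted p of 0.05 (edgeR), as were 12.5% of all genes. The log2 difference of the response was 1.52 ± 0.43 (SE) for JUND (edgeR FDR 0.110), 1.26 ± 0.45 for FOSL2 (FDR 0.214) and 1.65 ± 0.75 for ATF3 (FDR 0.360). For LE against S only FOSL2 was under that p, beside 10.8% of all genes (log2 difference 1.18 ± 0.48, SE, edgeR FDR 0.408), and for S against GE only JUND, beside 6.05% (1.01 ± 0.47, SE, FDR 0.806). With the gilt as a fixed block the FDRs for LE against GE were lower, at 0.0241 for JUND and 0.0448 for FOSL2 (edgeR). With a random block they were 0.0177 and 0.0536 (limma). For LE against S, FOSL2 was at an FDR of 0.144 with the fixed and 0.136 with the random block. No member passed 0.01 with either block. A call of FOSL2 in LE and not in GE or S is therefore not shown to be a difference between these cell types at the threshold used.

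The levels in the 3 cell types were then compared within each group of gilts in the same fit, on the common scale. In control gilts no member was called between any 2 cell types (0 of 7, without a block all at an unadjusted p above 0.05 in edgeR). The background was 0.150% for GE against LE, and 0% for S against LE and for S against GE. Of all genes, 21.2%, 3.77% and 11.4% were under that p in these 3 comparisons. FOSL2, for instance, was at 269 ± 49.7 CPM in LE, 239 ± 56.1 CPM in S and 219 ± 36.1 CPM in GE (SD, n = 4, 3 and 4), and these neighbours did not differ beyond their spread. With the gilt as a fixed block, FOS was lower in GE than in LE of control gilts (log2 difference −1.18, edgeR p 0.00548, FDR 0.0479). It was not called with this block either. In pregnant gilts FOSL2, JUND and ATF3 were lower in GE than in LE, 3 of 7 members against a background of 9.56% (4.50% lower). FOSL2 was at 1107 ± 302 CPM in LE and 377 ± 140.1 CPM in GE (log2 difference −1.55 ± 0.32, SE, edgeR FDR 0.00287). ATF3 differed most on the log scale, with 51.1 ± 25.3 CPM in LE and 9.76 ± 5.57 CPM in GE (−2.39 ± 0.54, SE, edgeR FDR 0.00483). JUND was at 112 ± 31.1 CPM in LE and 46.9 ± 20.4 CPM in GE (−1.26 ± 0.31, SE, edgeR FDR 0.00730). Without gilt 03 none of these 3 was called (background 1.42%), with FDRs of 0.0440 for FOSL2, 0.0547 for ATF3 and 0.0859 for JUND, and without gilt 04 or gilt 05 only FOSL2 was called. JUND was not called without gilt 06 or gilt 13 either (FDR 0.0110 and 0.0152).

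In pregnant gilts the libraries labelled S stood between LE and GE for FOSL2, at 436 ± 236 CPM (SD, n = 3). The log2 difference from LE of −1.34 ± 0.35 (SE) was not called without a block (edgeR FDR 0.0258), as for the other members, of which 2 were under an unadjusted p of 0.05 (26.6% of all genes were), but it was called with the gilt as a fixed block (FDR 0.00592) or a random block (FDR 0.00304). The background of this comparison was 0.893% without a block, 3.14% with the fixed block and 4.93% with the random block. DESeq2 also called 1 member here (background 6.74%). Between S and GE no member was called in either group of gilts (edgeR, without a block none under an unadjusted p of 0.05). The background was 0% in both groups. Of all genes, 11.4% in control and 2.54% in pregnant gilts were under that p. With the gilt as a fixed block, JUND was lower in S than in GE of control gilts (log2 difference −0.70, edgeR p 0.0217, FDR 0.183), and was not called. FOS, JUN and EGR1 were not called between any cell types, and JUN lay between 46.8 and 58.8 CPM in the means of all 6 groups.

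Levels of different genes can be compared only per length, here as CPM per kilobase of annotated exon, with the reservation that the model of FOS has no UTR and that of JUN only 203 bases of it, while that of JUNB is 5350 bases long. In control LE, JUN (47.7 ± 7.18), FOSL2 (35.4 ± 6.54) and FOS (35.0 ± 17.0) had the highest levels per kilobase, and JUND (26.7 ± 9.81) and EGR1 (24.95 ± 16.5) followed (SD, n = 4). Each of these overlapped with its neighbours in this order. In pregnant LE, FOSL2 was at 145 ± 38.8 CPM per kilobase, above JUND (59.2 ± 16.2), JUN (39.5 ± 6.19), ATF3 (22.5 ± 11.06), EGR1 (21.8 ± 5.45), JUNB (12.0 ± 1.94), FOS (11.8 ± 5.55) and FOSL1 (5.12 ± 1.04). The lowest FOSL2 library there, at 101 CPM per kilobase, was above the highest library of JUND, at 69.0.

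Besides their response, the members varied between animals of 1 group. After the mean of each group was taken away from the log2 CPM, FOS, JUNB and EGR1 varied together over the 22 libraries, with Pearson correlations of 0.81 for FOS and JUNB, 0.81 for JUNB and EGR1 and 0.78 for FOS and EGR1. The median correlation of these 3 genes with all 10642 other genes was −0.03 to −0.01. FOSL2 was correlated with them at 0.65 to 0.71 and with ATF3 at 0.66. JUN stood apart, with correlations of −0.43 to −0.01 with the other 6. The libraries of a gilt are not independent of each other and each pair of values shares a library and its depth, so that these values are given as a description.

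Much of this variation was shared by the cell types of a gilt. For FOS the libraries of a gilt all deviated to the same side of their group means in 8 of 8 gilts, for JUNB in 7, for EGR1 in 6 and for FOSL2 in 5. For JUND this held in 3 gilts, for ATF3 in 1 and for JUN in none. The share of all genes with such a pattern was not computed. Over all genes with a mean of at least 10 counts the libraries of a gilt also deviated alike, with median correlations of 0.257 to 0.468 between cell types. Sharing within a gilt was therefore not limited to these members. Control gilt 13 was high in FOS in LE, GE and S (log2 deviations of 0.85, 0.78 and 1.14), and control gilt 04 was low (−0.63, −0.999 and −1.28). Among pregnant gilts, 01 was high (0.81, 0.67 and 0.94) and 14 low (−0.19, −1.13 and −2.09). EGR1 followed in gilt 13 (0.99, 0.86 and 0.81) and in gilt 04 (−0.83, −0.79 and −1.37). The deviation of JUN was never beyond −0.42 and 0.49.

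**Figure D3:**
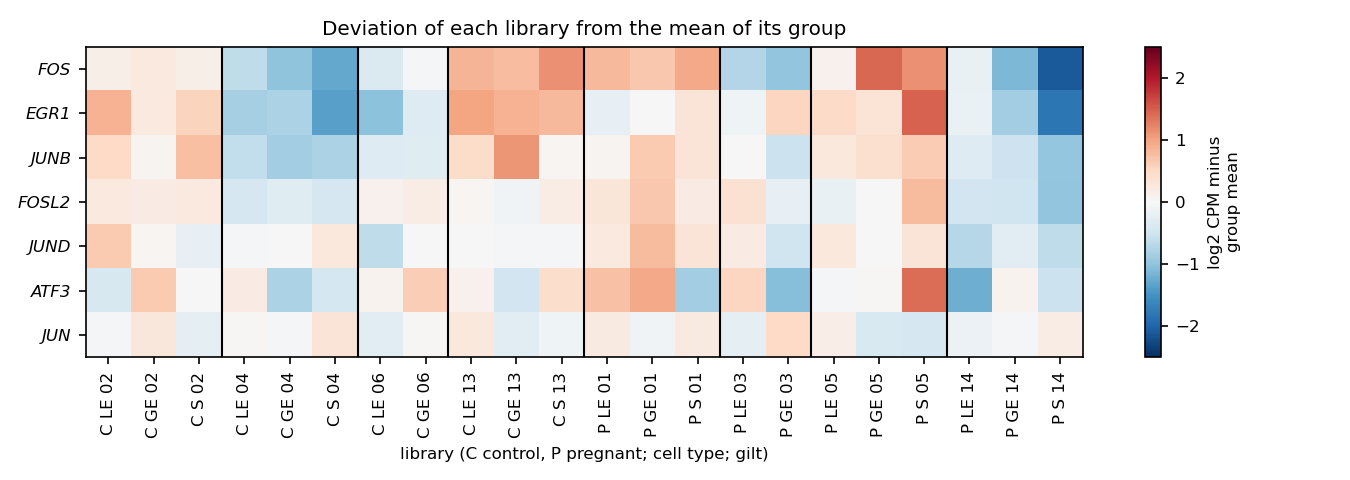
Deviation of the log2 CPM of 7 members (rows) from the mean of its group in each of the 22 libraries (columns, ordered by gilt, with black lines between gilts), red for above and blue for below the mean. The rows of FOS, EGR1 and JUNB change color together and mostly by gilt, from control gilt 04 (FOS −1.28 in S) to control gilt 13 (FOS 1.14 in S), whereas the row of JUN stays pale.

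The genes whose pattern was most like that of a member were taken from the same deviations, among genes with a mean of at least 10 counts. IER3, itself an immediate early gene, was the nearest gene to FOS (r = 0.87) and the second nearest to JUNB (r = 0.87). PFKP, a phosphofructokinase of glycolysis, was nearest to JUNB (r = 0.87) and among the nearest to EGR1 (r = 0.83), whose nearest gene was ALDOA, an aldolase of the same pathway (r = 0.85). The other 2 genes near FOS were EIF4A1 and RPN1, near JUNB was CTSC and near EGR1 was NHS. FOSL2 was nearest to TRIM52, PTGFRN and PHLPP2 (r = 0.88, 0.87 and 0.87). JUND was nearest to LPL, CAPN1 and ATF4 (r = 0.84, 0.79 and 0.79), and ATF3 to ADAMTS20, NOCT and BYSL (r = 0.84, 0.84 and 0.81). JUN had HPS1, ARMCX5 and CNTLN as its nearest genes (r = 0.78, 0.78 and 0.77). FOSL1, with only the 8 libraries of LE, was nearest to SLC39A11, DCUN1D2 and LOC110258215 (r = 0.98, 0.96 and 0.95), which at so few libraries and counts describes these libraries only.

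The genes around the members were read from lists of bZIP partners, other immediate early genes, the MAP kinase route, its phosphatases and feedback inhibitors, and genes with textbook AP-1 control, and their counts stand against the 6.33% of all LE genes that rose and the 3.71% that fell. The lists were chosen with earlier results of these data known, so that the counts are given as a description. Of 28 other bZIP factors listed for LE, 3 rose and none fell, a share close to that of all genes (median log2 FC 0.22, beside 0.01 over all genes). MAFF, a small MAF protein without an activation domain, rose from 15.0 ± 6.22 to 81.6 ± 25.7 CPM (SD, n = 4), and CEBPB, a factor of epithelial and decidual differentiation, from 35.1 ± 9.26 to 141 ± 37.2 CPM. The third, ATF4, the factor of the integrated stress response and a gene near JUND above, had a log2 FC of 1.13 ± 0.22 (SE). Of 32 other immediate early genes in LE, 7 rose and 1 fell (median log2 FC 0.66). NR4A3, an orphan nuclear receptor, went from 0.953 ± 0.860 to 56.2 ± 41.6 CPM and GADD45B, a stress sensor upstream of JNK and p38, from 5.65 ± 1.29 to 30.02 ± 13.8 CPM, whereas CTGF, a matrix protein regulated through YAP and TGF beta, fell from 1426 ± 340.1 to 232 ± 164 CPM (SD, n = 4). NR4A3 was near the floor in control LE and, like FOSL1, may have passed the CPM filter through the pregnant libraries alone.

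The MAP kinase route to FOS and JUN showed 5 called rises and 1 fall among 40 genes in LE, where 10.0% of all genes were called, with a median log2 FC of 0.10. RPS6KA3, the kinase RSK2, rose from 178 ± 8.89 to 614 ± 96.7 CPM, and MAPKAPK2, a kinase under p38, from 51.3 ± 5.40 to 139 ± 42.4 CPM. RPS6KA5, the kinase MSK1 that phosphorylates histone H3 and CREB at immediate early promoters, fell from 96.9 ± 8.03 to 7.75 ± 9.41 CPM (SD, n = 4, log2 FC −3.45 ± 0.59, SE, edgeR FDR 0.00279). It was also the only gene of this list called in the libraries labelled S (log2 FC −1.80 ± 0.28, SE, edgeR FDR 0.0807).

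Among the 11 phosphatases and feedback inhibitors of LE, 4 rose and 1 fell (median log2 FC 0.06), and members of the same family moved in opposite directions. The lists overlap, and 2 of these 4 rises are also counted among those of the other immediate early genes. DUSP4, a nuclear MAP kinase phosphatase, rose from 5.27 ± 1.93 to 222 ± 26.1 CPM and DUSP5, a nuclear phosphatase of ERK, from 17.7 ± 6.30 to 73.1 ± 21.8 CPM. DUSP6, a cytoplasmic phosphatase of ERK, fell from 193 ± 42.9 to 39.2 ± 25.1 CPM (SD, n = 4, log2 FC −2.26 ± 0.37, SE, edgeR FDR 0.00207). DUSP4 and DUSP5 were also the 2 called genes of this list in GE, with log2 FCs of 3.07 ± 0.53 (edgeR FDR 0.141) and 2.27 ± 0.50 (FDR 0.280).

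Of 21 genes with textbook AP-1 control listed for LE, 7 rose and none fell (median log2 FC 0.60), in a list chosen with earlier results of these data known. LAMB3, a laminin chain of epithelial basement membranes, went from 0.995 ± 0.519 to 208 ± 76.9 CPM, and CLU, the chaperone clusterin, from 35.4 ± 16.4 to 952 ± 1056 CPM (SD, n = 4), where the SD of the pregnant libraries exceeds their mean. LAMB3 was called in all 3 cell types, with log2 FCs of 7.61 ± 0.45 in LE, 5.87 ± 1.01 in GE (edgeR FDR 0.138) and 5.97 ± 0.97 in the libraries labelled S (FDR 0.0820). Its control means were near or under the floor (0.497 CPM in GE and 0.955 CPM in S). LAMB3 may thus have passed the CPM filter through the pregnant libraries alone, in which case it had to differ. SPP1, the secreted adhesion protein osteopontin, and TIMP1, an inhibitor of metalloproteinases, were named after their values were seen and were also called in the libraries labelled S. In GE and S no gene of the other bZIP factors or the other immediate early genes was called (edgeR, p value of 0.0021).

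**Figure D4:**
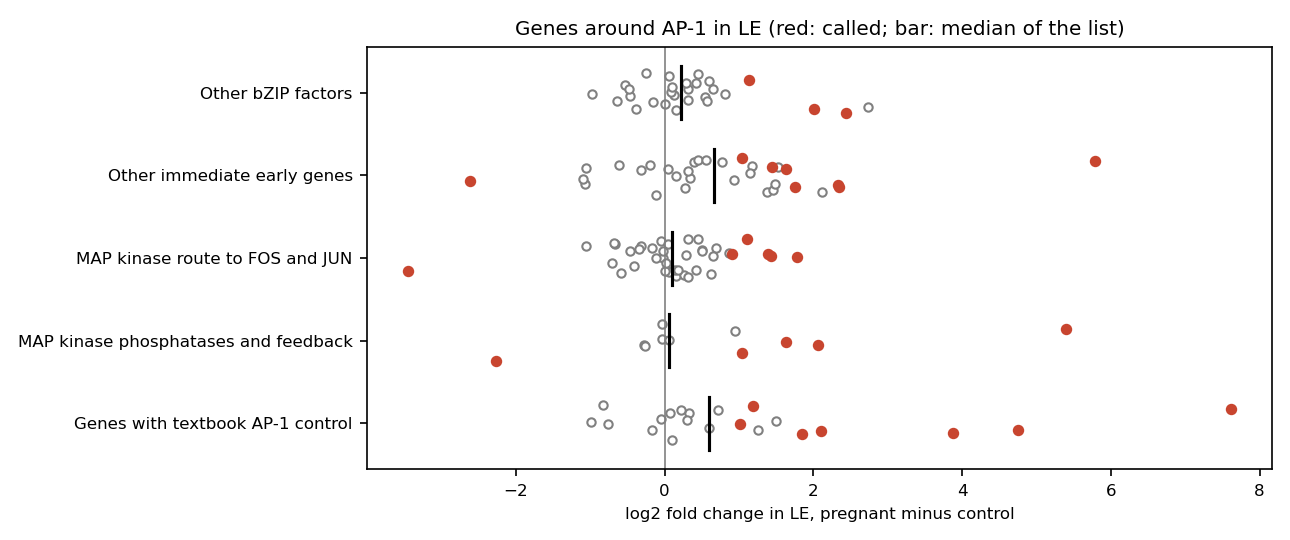
Log2 FC in LE, pregnant minus control (horizontal axis), of the genes in each of the 5 lists around AP-1 (rows, points spread vertically for legibility), with called genes in red, other genes in open circles and a black bar for the median of the list. Called genes lie mostly to the right, up to LAMB3 at 7.61, which was near the floor in control LE. The called falls are CTGF at −2.62, RPS6KA5 at −3.45 and DUSP6 at −2.26.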

How the data were processed

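As described by the authors, adapters and the first bases of the reads were removed, reads were mapped with Hisat2 to Sscrofa11.1, PCR duplicates were removed by the random bases of the adapter, and reads were counted per NCBI gene. Genes were removed by a CPM filter. The deposited tables, 1 per cell type, hold these raw counts. Which counter was used, whether it used strand and how strict the filter was are not given in the sources used here. A gene missing from a table was treated as not analysed, not as 0.

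Each table was fitted in edgeR 4.0.16 (R 4.3.3) with TMM scaling and the quasi-likelihood F test over all listed genes. Genes were called at an FDR of 0.01 in LE and in the fits of all 22 libraries, and at p below 0.0021 in GE and S. The numbers for the single cell types are those of the study, where a p of 0.0021 corresponded to the FDR of 0.01 in LE. In the present fit they were not the same cut. In LE 1447 genes were below that p and 1146 were called, so that LE had a stricter cut than GE and S. CPM are scaled by TMM within a table, or over the 10643 common genes where cell types were compared. Scripts were tested on simulated data. The members and lists were chosen with earlier results of these data known. Named beyond the members are the 3 genes nearest in pattern to each, and from each list the genes with the 2 largest called rises and falls in LE. Intervals cover counting error only.

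Libraries with 1 number come from 1 gilt according to the labels. The deviations of LE and GE libraries of 1 gilt had a median correlation of 0.257 (over 0.1 for 6 of 8 gilts), those of LE and S 0.314 (all 6 gilts) and those of GE and S 0.468 (5 of 6 gilts). No gilt was in both groups, and the gilt was therefore a block, fixed in edgeR or random in limma 3.58.1, only between cell types. Alternatives were other scalings (RLE, library size alone), filters (filterByExpr, at least 10 counts), tests (likelihood ratio, DESeq2 1.42.0), thresholds, the 6 gilts with an S library, and leaving out each gilt. Leaving out gilts 01 and 02 together was added after the data were seen. Sequences are from the NCBI genome of Sscrofa11.1.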

Additional observations from a re-analysis of the deposited data

Results flagged for a closer look

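Among 30 groups of 4 libraries tested for a library apart from the rest, 2 had one, where chance gives about 1 in 20 groups. EGR1 in pregnant LE was at 112 CPM in gilt 05, with the other libraries at 68.9 to 74.3 CPM. JUND in pregnant LE was at 65.0 CPM in gilt 14, with the other libraries at 123 to 128 CPM. No explanation was tested for either.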

How the results depend on the processing

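The count of 2 called members in LE, which includes FOSL1, became 1 with at least 10 counts in every library (which removed FOSL1, with 10.1% of all genes called), 5 at a p below 0.0021 (12.7% of all genes), and 6 with the likelihood ratio test, DESeq2 or an FDR of 0.05 (18.2%, 19.2% and 22.4%). It was 2 to 5 without single gilts, with 5 without gilt 14. The count of 3 members between GE and LE of pregnant gilts was 0 to 3 without single gilts and 2 without gilts 01 and 02. The count of 0 between S and LE of pregnant gilts became 1 (FOSL2) with the gilt as a fixed or random replicate block, an FDR of 0.05 (8.76% of all genes), a p below 0.0021 (6.14%) and DESeq2 (6.74%). The replicate block changed no other count of called members. Counts of 0 in GE, in S and for the differences between cell types in response were 0 under all alternatives run. Of 305 alternatives for 22 log2 FCs of single members, 17 turned the direction, all of values not called. Apart from FOS in GE with the 6 gilts with an S library (0.070) and JUN in S with library size alone (−0.034), these came from leaving out single gilts, over which FOS ranged from −0.83 to 0.17 in GE, JUN from −0.26 to 0.042 in GE and −0.096 to 0.25 in S, ATF3 from −0.35 to 0.35 in GE and −0.44 to 1.04 in S, and EGR1 from −0.44 to 0.16 in LE and −0.45 to 0.12 in GE. Scaling by library size alone moved the median log2 FC of all genes in LE from 0.01 to −0.14 and the share of called genes that were higher from 63.0% to 50.5%. The causes were not tested. Depth limits FOSL1 and, in S, FOS (6 counts in 1 library), and 3 or 4 gilts per group limit all comparisons.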
